A study of Mus musculus with 4 samples.

Results

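Chemokines are small secreted proteins that steer migrating cells, and the genes for these ligands and their receptors were read in mouse heart chambers. Members were taken by gene symbol, as the CC, CXC, CX3C and XC ligands, the signalling receptors and the atypical receptors, which gave 54 of 18783 genes with a named probe set, 33 ligands and 21 receptors. The groups were wild type atria (Mef2a+/+), knockout atria (Mef2a-/-), wild type ventricles (Mef2a+/+) and knockout ventricles (Mef2a-/-), all from mice 2 months old, where Mef2a encodes a transcription factor of striated muscle. Each group was 1 array that carried RNA pooled from 7 mice of both sexes, so no difference can be set against a replicate spread and none was tested. The sources used here do not give the deleted exon or the cell types in which Mef2a is deleted.

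A chemokine binds a G protein-coupled receptor on a leukocyte or stromal cell and is held on heparan sulfate of the vessel wall or matrix, which gives the migrating cell a direction. Ligands are classed by the spacing of their first cysteines (CC, CXC, CX3C, XC). Some are made constantly and keep cells in place, such as CXCL12, and others are induced by interferon or tissue injury. Atypical receptors bind chemokines without G protein signalling and clear them from the tissue. In the heart, resident macrophages, fibroblasts, endothelium and the outer mesothelium are known sources and targets.

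Few of these genes gave a clear signal in whole chambers. A level is a log2 intensity, and the median of all values in the table, 5.71, served as the floor. On at least 1 array 18 of the 54 reached it, 13 ligands and 5 receptors, against 55% of all named genes, and 13 reached it on all 4 arrays, against 47.5% of all. The member nearest above the floor was Cx3cr1, with a highest level of 5.96, and the nearest below was Ccl24, at 5.35. Of the 18 genes, 4 passed the folds used here in some comparison: Cxcl12, Cxcl9, Ccl27a and Cxcl13. Cxcl12 was lower on both knockout-labelled arrays, Cxcl9 and Ccl27a were higher on the knockout-labelled atria array, and Cxcl13 was above the floor in atria alone. The folds were 1.5-fold between genotypes and 2-fold between chambers, with the brighter array of the pair at the floor.

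The sequence before the start site is shown for the 3 of these genes with 1 listed start site (Ccl27a has 3), to set the gene that was lower in both chambers beside the interferon-induced and the atrial one. The 250 bases are from RefSeq (GRCm38.p6), written 5′ to 3′ on the strand of the gene, at chr6:117168285-117168534 (plus strand), chr5:92328080-92328329 (minus strand) and chr5:95956689-95956938 (plus strand). Capitals mark matches to the motifs searched.
Cxcl12: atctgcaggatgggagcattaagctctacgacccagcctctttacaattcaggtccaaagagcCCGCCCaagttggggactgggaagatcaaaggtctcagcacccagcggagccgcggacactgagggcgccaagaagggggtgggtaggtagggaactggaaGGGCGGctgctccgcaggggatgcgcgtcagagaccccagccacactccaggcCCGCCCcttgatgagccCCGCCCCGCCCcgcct
Cxcl9: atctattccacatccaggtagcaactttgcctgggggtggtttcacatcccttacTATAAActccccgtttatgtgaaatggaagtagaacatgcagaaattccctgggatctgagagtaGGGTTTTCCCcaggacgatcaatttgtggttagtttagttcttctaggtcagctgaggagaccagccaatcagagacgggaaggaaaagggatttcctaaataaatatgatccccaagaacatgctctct
Cxcl13: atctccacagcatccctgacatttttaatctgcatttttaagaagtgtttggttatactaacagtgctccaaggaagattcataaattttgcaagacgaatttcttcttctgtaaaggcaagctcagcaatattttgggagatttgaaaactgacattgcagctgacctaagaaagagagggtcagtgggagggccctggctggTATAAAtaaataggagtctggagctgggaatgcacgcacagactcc
The Cxcl12 window held 5 GC boxes (GGGCGG), which 32.7% of 32851 promoter windows of the same length also hold at least once. The Cxcl9 window held an NF-kappaB motif (GGGNNTTNCC), 130 to 121 bases before the start, found in 4.11% of windows, and the letters of a TATA box (TATAAA), found in 12.4%, 195 to 190 bases before the start. The Cxcl13 window held a TATA box 46 to 41 bases before the start. Motifs were searched on both strands, and those of Cxcl12 next to the start overlap one another. The MEF2 motif CTANNNNTAG, found in 3.20% of windows, was not in these 3 windows, nor were the interferon motifs TTCNNNGAA (7.02%) and GAAANNGAAA (2.98%), which says only that these letters are absent there. Of the 40 members with a listed promoter, 3 held the MEF2 motif (Ccl3, Ccr1 and Cx3cr1) and 9 the NF-kappaB motif. A member was counted if any of its windows held the motif, so these counts cannot be set against the shares, which are per window.

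**Figure D1:**
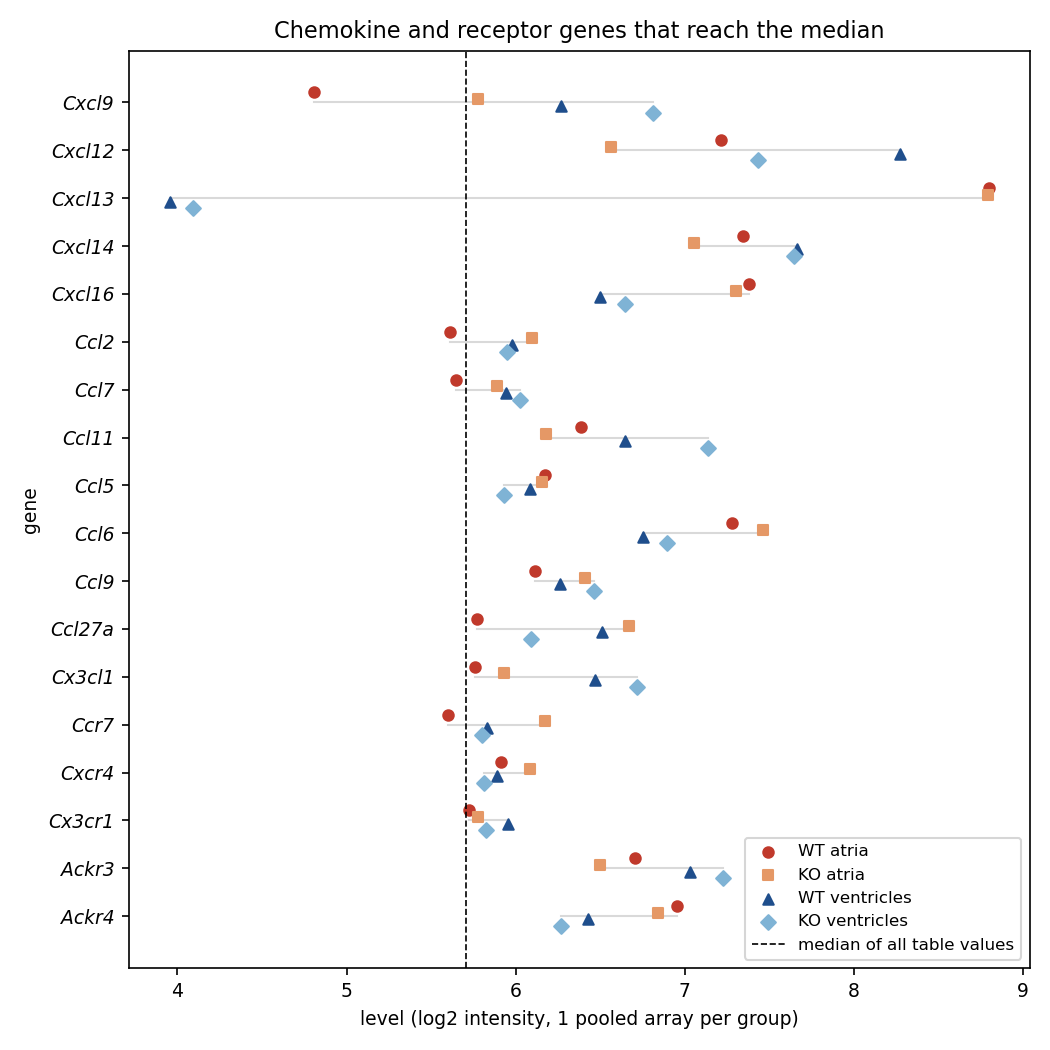
Level of each of the 18 genes that reach the floor (log2 intensity, horizontal axis) on the 4 arrays, 1 symbol per array, genes ordered by role; the dashed line is the median of all table values. Cxcl13 lies at 8.80 and 8.79 in atria and at 3.95 and 4.09 in ventricles, and Cxcl12 is lower on the knockout-labelled array of each chamber.

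The arrays as a whole touch these values in 2 ways. The Mef2a probe set stood at 10.32 and 10.41 on the wild type and knockout-labelled atria arrays and at 10.28 and 10.34 on the ventricular ones, so, with the deleted part not known, it does not check the genotype labels, on which each direction rests. Genes below the floor on all arrays tended to read higher on the knockout-labelled atria array, with 75.9% of 8456 above 0 and a median log2 ratio of 0.14, against 49.7% and 0.00 in ventricles. Chamber markers followed the chamber labels: 5 of 5 atrial cardiomyocyte genes were at least 2-fold higher in wild type atria, 4 of 4 ventricular ones at least 2-fold higher in wild type ventricles, and 8 of 8 general cardiomyocyte genes reached the floor.

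CXCL12 (gene number 20315) is the ligand of CXCR4, made by stromal and endothelial cells, and recruits and retains progenitors and lymphocytes. Cxcl12 stood at 7.21 in wild type and 6.56 in knockout-labelled atria, and at 8.27 in wild type and 7.43 in knockout-labelled ventricles. Both knockout-labelled arrays were below the wild type array of their chamber, and all 4 lay above the floor. The log2 ratio, knockout minus wild type, was -0.65 in atria (1.57-fold lower) and -0.84 in ventricles (1.79-fold lower). Over the 4 scalings the ratio ran from -0.68 to -0.60 in atria and from -0.85 to -0.82 in ventricles. It was the only one of 17 members tested in both chambers to pass 1.5-fold in both, where 0.254% of 9437 genes passed lower in both and 0.106% higher in both. The next genes on either side, Tmem72 and Zfp637, had positive ratios between 0.15 and 0.20 in both chambers.

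The receptors of CXCL12 did not show the same difference. Cxcr4, its signalling receptor, had ratios of 0.17 in atria and -0.08 in ventricles. Ackr3, the atypical receptor that removes CXCL12, had -0.20 in atria and 0.20 in ventricles. Neither reached 1.5-fold in either chamber. In a tissue sample fewer cells of a type and less RNA per cell cannot be told apart. Of 14 fibroblast markers, 3 were at least 1.5-fold lower in knockout-labelled atria, with a median of -0.29, and 0 in ventricles, with a median of -0.19 and 13 of 14 negative. Their summed intensity went from 13223 to 10074 in atria and from 7397 to 6724 in ventricles. Of 12 endothelial markers 0 passed in either chamber, with medians of 0.10 and 0.00, and their summed intensity went from 6765 to 7294 and from 5909 to 5898. Of 10 smooth muscle and pericyte markers, Acta2 was higher and Cnn1 lower in atria, and 0 passed in ventricles, with summed intensities going from 2863 to 3059 and from 5685 to 5831. All members of these 3 lists reached the floor on at least 1 array, and their part in the Cxcl12 ratio was not tested.

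CXCL9 (gene number 17329) is induced by interferon gamma and attracts activated T cells through CXCR3. Cxcl9 stood at 4.81 in wild type and 5.78 in knockout-labelled atria, and at 6.27 in wild type and 6.81 in knockout-labelled ventricles. The wild type atria array was below the floor and the other 3 were above it, the knockout-labelled atria array only just. The ratio was 0.97 in atria (1.96-fold higher) and 0.55 in ventricles (1.46-fold higher), with 0.85 to 0.97 and 0.55 to 0.57 over the scalings. With both arrays required at the floor the atrial value was not counted. Its neighbour Cxcl10, which encodes another CXCR3 ligand, was below the floor on all arrays, with 0.53 in atria and 0.03 in ventricles. Cxcl11, the remaining ligand of the trio, was also below it, with 0.30 and -0.03, and so was Cxcr3, with 0.48 and 0.05. These atrial values of genes below the floor stand beside the general shift of such genes on that array.

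CCL27 (gene number 20301) attracts T cells to skin through CCR10. Ccl27a stood at 5.77 in wild type and 6.67 in knockout-labelled atria, and at 6.51 in wild type and 6.09 in knockout-labelled ventricles. The knockout-labelled array was the higher one in atria and the lower one in ventricles, with all 4 above the floor. The ratio was 0.90 in atria (1.87-fold higher) and -0.42 in ventricles (1.34-fold lower), a difference of -1.32 between the chambers that ran from -1.37 to -1.26 over the scalings and had no test. No other member that reached the floor had genotype ratios 2-fold apart, and 0.649% of 10327 genes did. With opposite signs as well it was 0.349% of the 10327. Ccr10, its receptor, was below the floor, with 0.26 and -0.11. RefSeq lists a near-identical copy, Ccl27b, and the span of Il11ra1 overlaps Ccl27a. Neither was analysed here, so which transcript this probe set read is uncertain.

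**Figure D2:**
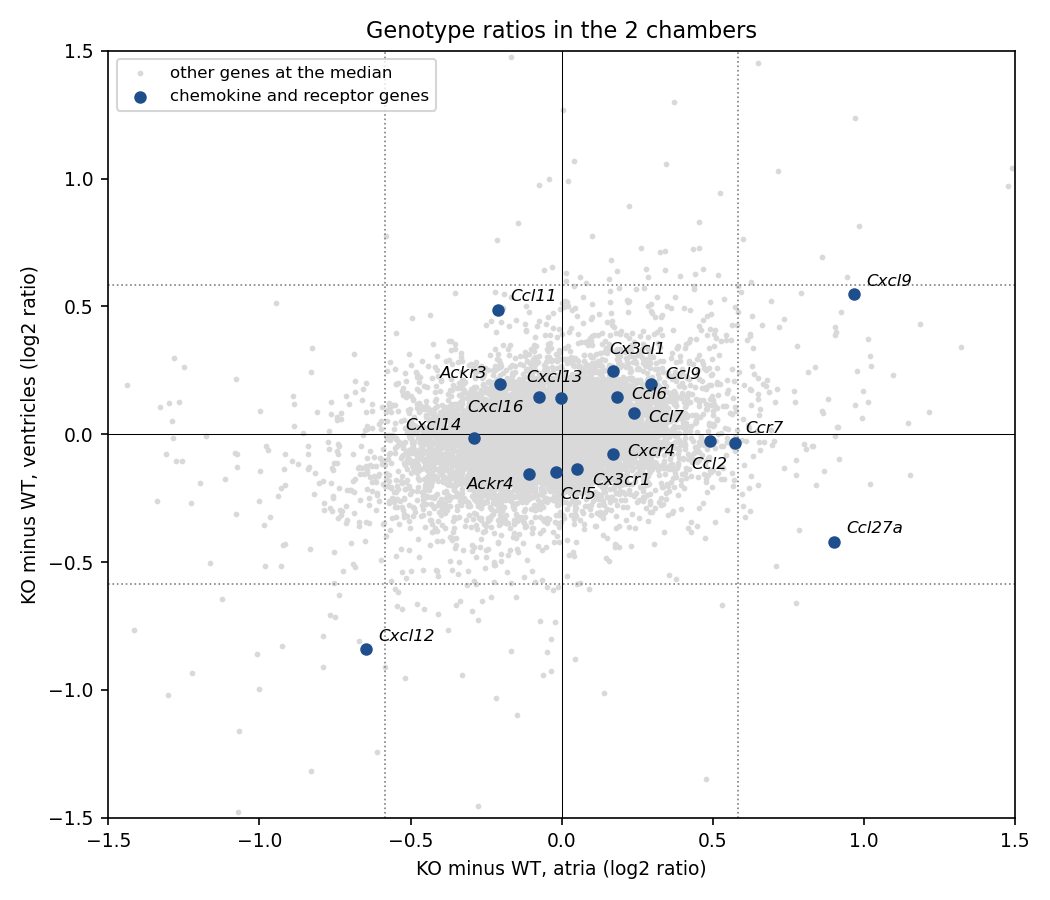
Log2 ratio of knockout-labelled to wild type in atria (horizontal axis) and ventricles (vertical axis) for the 18 genes in blue and the other genes at the floor in grey, with dotted lines at 1.5-fold; 31 genes fall outside the plotted range of 1.5. Cxcl12 lies past the line in both chambers at -0.65 and -0.84, Cxcl9 lies past it in atria at 0.97 and short of it in ventricles at 0.55, and Ccl27a lies on opposite sides of 0.

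Knockout-labelled against wild type atria asked which chemokine genes differ in the upper chambers. Of 18 genes tested, 2 were at least 1.5-fold higher (Cxcl9 and Ccl27a), where 1.02% of all genes tested were, and 1 was lower (Cxcl12), where 2.01% were. Either way that is 3 of 18, or 16.7%, against 3.03% of 10051 genes. The median over the 18 was 0.11, against -0.03 over all genes tested. Among monocyte and eosinophil attractants, Ccl2 was at 0.49, Ccl7 at 0.24 and Ccl11, the eosinophil attractant eotaxin, at -0.21. CCL2 is the main ligand of CCR2, which draws monocytes from blood. Ccl2 stood at 5.61 in wild type and 6.10 in knockout-labelled atria, against 5.98 and 5.95 in ventricles, so that only the wild type atria array was below the floor. Ccr7, the receptor that guides dendritic cells and T cells to lymph nodes, stood at 5.60 and 6.17 in atria and at 5.83 and 5.80 in ventricles, with ratios of 0.57 and -0.03. The atrial value lay just under the 1.5-fold line, which is 0.58, and reached 0.59 under quantile normalization.

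The other ligands at the floor lay between -0.29 and 0.29 in atria. Ccl9 and Ccl6, CC ligands of macrophages and other myeloid cells, were at 0.29 and 0.18, and Ccl5, a ligand made by T cells and platelets, was at -0.02 with a sign that turned under another scaling. Cxcl14, a ligand found widely in epithelia and stroma, was at -0.29, Cxcl16, which exists as a membrane-bound scavenger receptor and a soluble ligand, was at -0.08, and Cx3cl1 (fractalkine), the membrane-bound ligand of endothelium and neurons, was at 0.17. Cxcl13 was at 0.00, with a sign that turned under another scaling. Among receptors, Cx3cr1, carried by resident macrophages, was at 0.05 with a sign that turned, and Ackr4, which scavenges the lymphoid ligands CCL19, CCL21 and CCL25, was at -0.11. Macrophage markers gave a median of -0.01 over 11 genes in atria, with 0 past 1.5-fold, and a summed intensity of 2252 in wild type and 2336 in knockout-labelled atria. Of 9 T cell, 6 B cell, 7 NK cell and 8 neutrophil markers measured, 0 reached the floor on any array.

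**Figure D3:**
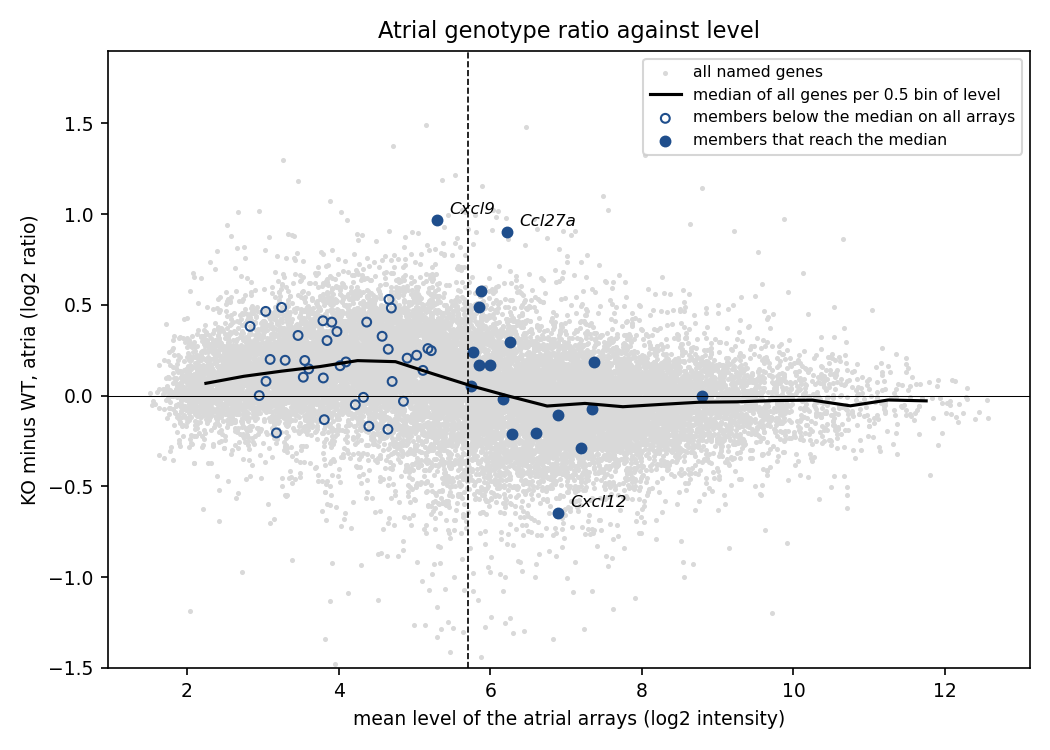
Atrial log2 ratio, knockout-labelled minus wild type, against the mean level of the 2 atrial arrays (log2 intensity), with all named genes in grey, their median per 0.5 bin as a line, members that reach the floor (dashed) filled and the others open; 26 genes lie outside the range of 1.5. Among the 36 open points 28 are above 0, where the line of all genes is also above 0.

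The 36 members below the floor had 0 ratios past the folds in any comparison. In atria 28 of the 36 were positive, with a median of 0.20 and a range from -0.21 to 0.53, and over all genes below the floor 75.9% were positive. In ventricles 20 of the 36 were positive, with a median of 0.03. They included all 5 neutrophil-attracting CXC ligands (Cxcl1, Cxcl2, Cxcl3, Cxcl5 and Cxcl15) and 9 of 10 CC receptors (Ccr1, Ccr1l1, Ccr2, Ccr3, Ccr4, Ccr6, Ccr8, Ccr9 and Ccr10). Also below were 5 CXC receptors (Cxcr1, Cxcr2, Cxcr3, Cxcr5 and Cxcr6), the atypical receptors Ackr1 and Ackr2, and the ligands Xcl1, Cxcl10, Cxcl11, Cxcl17, Ccl1, Ccl3, Ccl4, Ccl8, Ccl12, Ccl17, Ccl20, Ccl22, Ccl24, Ccl25 and Ccl26. A value below the floor does not show that a gene was silent. On the wild type atria array 28 of the 54 members lay within the range of 95% of 1068 olfactory receptor genes, which heart was not assumed to express.

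Few signalling receptors reached the floor, 1 of 10 CC receptors and 2 of 7 CXC and CX3C receptors. That alone limits how many ligands could stand above the floor together with a receptor. Of 12 ligands above it that have a well-known signalling receptor among the members, 2 had such a receptor above it: Cxcl12 with Cxcr4, and Cx3cl1 with Cx3cr1. The other 10 were paired only with receptors below it, such as Cxcl13 with Cxcr5, Cxcl16 with Cxcr6 and Ccl2 with Ccr2. In the RefSeq gene order, 3 of 6 adjacent ligand genes on chromosome 11 (Ccl2, Ccl7 and Ccl11, but not Ccl12, Ccl8 and Ccl1) and 3 of 5 in another run of that chromosome (Ccl5, Ccl9 and Ccl6, but not Ccl3 and Ccl4) reached the floor. The run of Cxcl3, Cxcl15, Cxcl1 and Cxcl2 on chromosome 5 had 0 of 4.

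Knockout-labelled against wild type ventricles asked the same of the lower chambers. Of 17 genes tested, Cxcl12 alone passed 1.5-fold, where 1.2% of 9713 genes passed either way, and it was lower, where 0.69% were lower and 0.515% higher. The median over the 17 was -0.02, with a sign that turned under median centring, against 0.00 over all genes tested. Cxcl9 at 0.55 and Ccl11 at 0.49 had the largest positive ratios. Ccl11 stood at 6.39 and 6.18 in wild type and knockout-labelled atria and at 6.65 and 7.13 in the ventricles, so it was lower in one chamber and higher in the other. The remaining ratios in ventricles were 0.25 for Cx3cl1, 0.20 for Ccl9, 0.14 for Ccl6 and for Cxcl16, 0.08 for Ccl7, -0.13 for Cx3cr1, -0.15 for Ccl5, -0.16 for Ackr4, -0.03 for Ccl2 and -0.02 for Cxcl14, the last with a sign that turned under another scaling. Macrophage markers had a median of -0.16 over 10 genes in ventricles, with 1 positive and 0 past 1.5-fold, and a summed intensity of 2094 in wild type and 1937 in knockout-labelled ventricles.

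The genotype comparisons of the chambers share no array, and the labels do not say if a mouse gave both of its chambers. Of the 18 genes 9 had the same sign in both, against 57.5% of all genes at the floor. Cxcl12 and Ackr4 were negative in both, and Cxcl9, Ccl9, Ccl6, Ccl7 and Cx3cl1 were positive in both. Those signs held under the 4 scalings, while Ccl5 and Cxcl14, negative in both, each turned sign in one chamber under another scaling.

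The wild type chambers were then compared, to see which members separate atria from ventricles. CXCL13 (gene number 55985), the ligand of CXCR5, guides B cells to lymphoid follicles and is made by follicular stroma and by mesothelium of fat-associated lymphoid clusters. Cxcl13 stood at 8.80 in wild type and 8.79 in knockout-labelled atria, and at 3.95 and 4.09 in wild type and knockout-labelled ventricles. Both atrial arrays were far above the floor and both ventricular ones below it, and inside the range of 95% of olfactory receptor genes. The log2 ratio, atria minus ventricles, was 4.84 in wild type (28.7-fold) and 4.70 in knockout-labelled pools (26.0-fold). The ventricular side was near background, where such values compress, so the ratio has no firm size. The next measured gene, Cnot6l, was at -0.23 and -0.20.

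Epicardial and mesothelial markers were also higher in atria. Of the 11 genes tested 7 were at least 2-fold higher in wild type atria, all 11 positive, with a median of 1.26 and a summed intensity of 1945 against 558 in ventricles. In the knockout-labelled pools it was again 7 of 11, with 1903 against 602. Only 5 of these 11 genes reached the floor on a ventricular array, so several of these ratios also have no firm size. The atrial gain was not particular to this list. Between the wild type chambers, venous endothelial markers had a median of 1.41, with 3 of 5 past 2-fold upward and 1 downward. Fibroblast markers had a median of 0.81, with 13 of 14 positive and 4 past 2-fold. General endothelial markers had -0.07, with 4 of 12 positive, and smooth muscle and pericyte markers -0.51, with 1 of 10 positive. Of 7 follicular dendritic and lymphoid stroma genes 3 reached the floor, and their summed intensity was 285 against 198. Chst4, a sulfotransferase of lymphoid venules, was higher by 1.65 and Tnfsf13b, a B cell survival factor, by 0.93, while Tnfsf11, Cr2, Fcer2a, Glycam1 and Madcam1 had ratios from -0.23 to -0.04. Chst4 and Tnfsf13b were below the floor on both ventricular arrays. Of 6 B cell markers 0 reached the floor, with a summed intensity of 103 in wild type atria and 114 in wild type ventricles. The part of any of these cell types in the Cxcl13 ratio was not tested.

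Of 18 genes tested 1 was at least 2-fold higher in wild type atria (Cxcl13), where 3.89% of 10035 genes were, and 2 were lower (Cxcl9 and Cxcl12), where 2.21% were. Cxcl9 was at -1.46 and Cxcl12 at -1.06. The median of the 18 was -0.25 with 6 positive, against -0.01 over all genes tested. The ligands Cx3cl1 (-0.71) and Ccl27a (-0.74) were lower in atria and Cxcl16 (0.88), Ccl6 (0.53) and the scavenger gene Ackr4 (0.53) higher, all short of 2-fold. The others lay between -0.37 for Ccl2 and 0.09 for Ccl5, and that of Cxcr4, at 0.02, turned sign under another scaling.

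Knockout-labelled atria against knockout-labelled ventricles was set beside it. That comparison shares an array with each genotype comparison. It called 2 of the 18, where 6.3% of 10121 genes passed 2-fold either way. Cxcl13 was higher, where 3.46% were, and Cxcl9 was lower at -1.04, where 2.85% were. Cxcl12 was at -0.87, Cx3cl1 at -0.79 and Cxcl16 at 0.66. Ccl11 was at -0.96, against -0.26 in wild type, and reached -1.05 under median centring. Ackr3 was at -0.73, against -0.33, and Cxcl14 at -0.59, against -0.32. Ccl27a was at 0.58, against -0.74, so its higher chamber was the atria in one genotype and the ventricles in the other. Ccr7 and Ccl2 also differed in sign, at 0.37 against -0.24 and at 0.15 against -0.37.

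**Figure D4:**
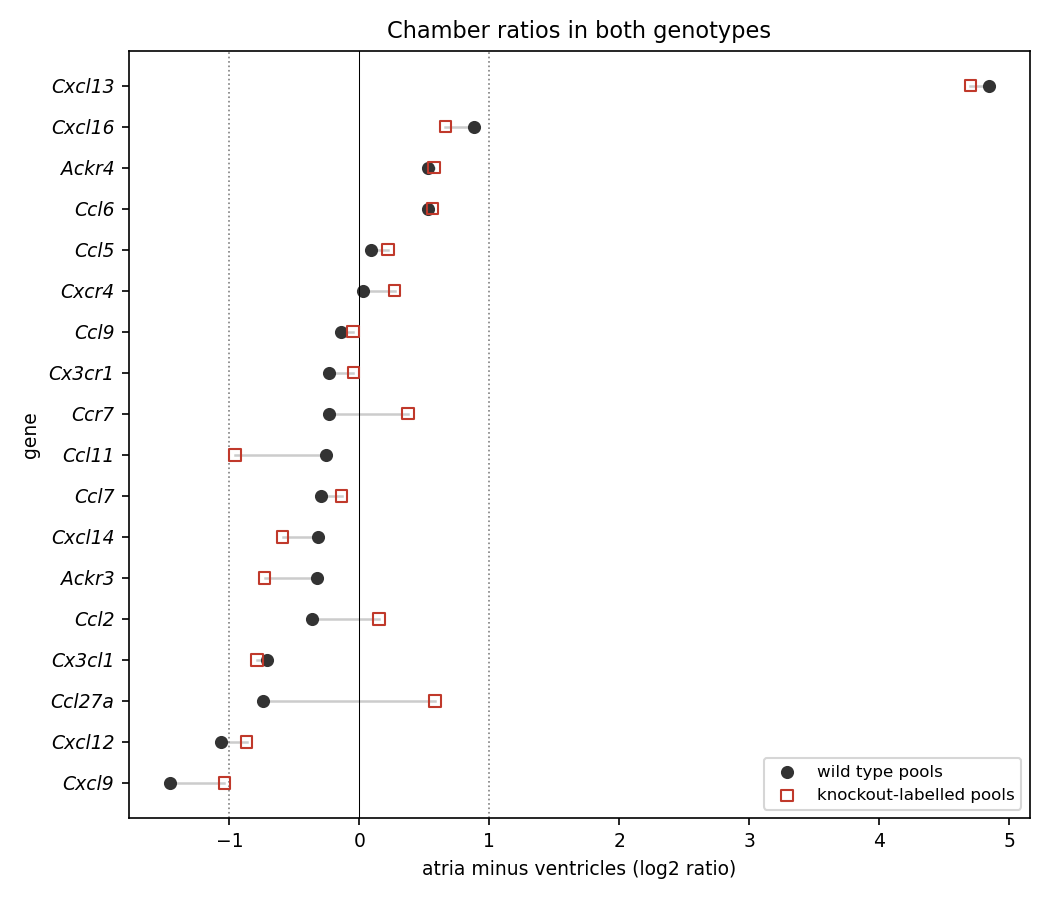
Log2 ratio of atria to ventricles (horizontal axis) for the 18 genes in wild type pools (filled circles) and knockout-labelled pools (open squares), with dotted lines at 2-fold. Cxcl13 stands alone at 4.84 and 4.70, Cxcl9 lies past the line on the other side at -1.46 and -1.04, and Ccl27a crosses 0.

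The other genes of the pathway were read from lists by role. Over all genes tested, 3.03% passed 1.5-fold in atria, 1.2% in ventricles, and 6.1% passed 2-fold between the wild type chambers. Counts of 0 in short lists therefore say little. Of 9 relatives whose symbols fall outside the naming pattern, 8 reached the floor, against 55% of all named genes. In knockout-labelled atria Ppbp, a platelet CXC ligand, was at -2.12 and Cklf, a chemokine-like factor, at -0.76, and 0 of 8 were higher. Cklf reached the floor on the wild type atria array alone. In ventricles 0 of 7 passed. Ppbp was higher in wild type atria than ventricles by 2.52, and stood at 8.69 on the wild type atria array, 6.57 in knockout-labelled atria, and 6.17 and 6.14 in wild type and knockout-labelled ventricles, so both of its ratios rest on the wild type atria array. Gpr182, an endothelial receptor that binds chemokines, was higher in the same comparison by 2.11 and Rarres2, the precursor of the attractant chemerin, by 1.43. Of 22 genes of receptor signalling and migration, Grk5, a kinase that shuts off activated receptors, was higher in knockout-labelled atria at 0.59, and Gnai1, the alpha subunit of an inhibitory G protein, was lower at -0.64. In ventricles 0 of 19 passed, with Grk5 at 0.56. Gng2, a G protein gamma subunit, Grk3, another receptor kinase, and the adhesion kinase gene Ptk2b were higher in wild type atria than ventricles, at 1.73, 1.13 and 1.31. Of the genes that process and present chemokines, 0 passed 1.5-fold between genotypes. Dpp4, the peptidase that inactivates CXCL12, and Mmp2, which also cleaves it, were higher in wild type atria than ventricles by 1.15 and 1.01. Ptk2b and Dpp4 were below the floor on both ventricular arrays. Of 18 inducing cytokine and transcription factor genes, Tlr4, the lipopolysaccharide receptor, was lower at -0.64 in knockout-labelled atria, where it was below the floor. In ventricles 0 passed.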

How the data were processed

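RNA of 4 pools was labelled with biotin after whole-transcript amplification and read on 1 Affymetrix array each, per the labels' protocols. The authors deposited a log2 intensity for each probe set. It was made with RMA and affy, per the submitters' processing notes. Versions, array design and probe set build are not given in the sources used here. RMA is meant to even out the arrays, and it compresses differences near background. The deposited arrays still differed somewhat. Their medians were 5.72 and 5.75 in wild type and knockout-labelled atria, and 5.69 and 5.66 in the ventricles. The interquartile range was 2.97 on the knockout-labelled atria array, against 3.21 in wild type atria and 3.18 and 3.19 in the ventricles. The precision is limited by there being 1 array a group.

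Of 21212 probe sets, 18786 had 1 symbol in the platform annotation, 6 had several and 2420 had no entry and stayed unnamed. A RefSeq gene table (GRCm38.p6) updated the symbols, 18775 of them by gene number, and the brighter of doubled probe sets was kept, leaving 18783 genes. Ratios are differences of 2 log2 values. Alternatives were median centring, quantile normalization, lowess centring (span 0.3, statsmodels 0.14.6), other floors and the other fold. The counting was tested on simulated 2-fold changes in genes well above the floor, which does not cover smaller changes or genes near the floor. Members, lists, pairs and motifs were chosen with earlier results of these data known. Members past a fold are given on every array, and other members at the floor by their ratios with levels for some. Of each pathway list only genes past the fold are named, by ratio alone except for Ppbp. The planned limit of 4 names per list was exceeded for receptor signalling and migration.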

Additional observations from a re-analysis of the deposited data

Results flagged for a closer look

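Ccl27a was singled out because its genotype ratio went opposite ways in the chambers, 0.90 in atria and -0.42 in ventricles, under each of the 4 scalings. The difference, ventricles minus atria, was -1.32, and with 1 array per group it was not tested. Of all 10327 genes at the floor, 0.349% had ratios 2-fold apart and of opposite sign.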

How the results depend on the processing

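The counts of members past the fold kept within 1.5 times of the values reported under quantile normalization, median centring and lowess centring, and Cxcl12, Cxcl9, Ccl27a and Cxcl13 kept their calls under all 3. Median centring added Ccl11 between the chambers of the knockout-labelled pools, and quantile normalization added Ccr7 in atria. Removing the floor changed no count. With a floor at the 75th percentile of all values, 7.27, 5 members reached it instead of 18, 0 passed 1.5-fold in atria instead of 3, 1 passed 2-fold between the knockout-labelled chambers instead of 2, and 0 had genotype ratios 2-fold apart between chambers instead of 1. That last set of alternatives, on the difference between chambers, was chosen after seeing the data. With both arrays of a pair required at the floor, 1 passed between the wild type chambers (Cxcl12) and 1 between the knockout-labelled chambers (Cxcl9), since Cxcl13 lies below the floor in ventricles and Cxcl9 in wild type atria. At 2-fold in place of 1.5-fold, 0 members passed in atria and 0 in ventricles. At 1.5-fold in place of 2-fold, 6 passed between the wild type chambers and 8 between the knockout-labelled ones. No paired analysis was possible because each group has 1 array and the labels give no replicate numbers, and no array could be left out for the same reason. Signal over background limits Cxcl9 in wild type atria and Cxcl13 in ventricles, which lay below the floor. For the atrial genotype ratio of Cxcl9 the brighter array, at 5.78, was itself only just above the floor of 5.71.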
